A study of Mus musculus with 4 samples.

Results

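A set of 10 chemokine genes was followed by the cell type that carried their transcripts in the growing end of the mouse incisor. The genes were Cxcl12, Cxcl14, Cxcl1, Cxcl9, Cxcl10, Ccl2, Ccl3, Ccl4, Ccl7 and Ccl24, which are 10 of the 32285 gene rows in each library, chosen by symbol. Proximal tissue of the lower incisor was taken from mice at postnatal day 15, dissociated, and counted by droplet single-cell RNA sequencing (10x Genomics, 3′ tags with unique molecular identifiers, UMIs). There were 2 WT and 2 Din-KO libraries. Din-KO mice carry a germline tm1b allele of Din, in which exon 2 is removed in every cell and a LacZ reporter is read from the Din promoter. The number of animals behind each library and their sex were not given in the sources used here, so p-values measure only the spread between these libraries. Levels are UMIs per 1000000 UMIs of a cell class in a library (CPM).

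Chemokines are small secreted proteins that direct cell movement through G protein-coupled receptors, and they are divided into CXC and CC families by the spacing of their first cysteines. Some, such as Cxcl12 and Cxcl14, are made steadily by stromal cells and position stem cells and leukocytes. Others, such as Ccl2 and Cxcl10, are induced by inflammatory signals and recruit monocytes or T cells.

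After filtering, 11310 of 20502 barcodes were kept, with a median of 8016 to 11588 UMIs per cell in the 4 libraries. Any pair of libraries shared 4 to 12 cell barcodes. Clusters were made without any chemokine ligand or receptor gene and named from marker genes. Mesenchyme-like cells numbered 633 to 3029 per library, endothelium-like cells 103 to 298 and macrophage-like cells 87 to 737. All 8 macrophage markers (C1qa, C1qb, C1qc, Csf1r, Adgre1, Mrc1, Cd68 and Ms4a7) and all 8 endothelium markers were detected in over 10% of the cells of their main clusters. The libraries of replicate 2 stood apart from those of replicate 1: they held fewer cells, and 9 mesenchyme markers summed to 40279 and 34629 CPM in mesenchyme-like cells against 9941 and 11136 CPM. Din itself was counted at 33.1 and 24.6 CPM for WT and 17.3 and 21.0 CPM for Din-KO cells, and a 3′ tag outside the deleted exon does not test the deletion. Cells with Y-linked UMIs were found in the Din-KO libraries only, where they made up 43.5% and 43.6% of mesenchyme-like, 30.2% and 28.9% of endothelium-like and 30.1% and 37.9% of macrophage-like cells, so sex and genotype cannot be fully told apart. Values from cells with Xist UMIs are therefore given beside the genotype results.

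Several members are neighbours in the genome (GRCm38). Ccl2 (chr11:82035571-82037453, plus strand) and Ccl7 (chr11:82045712-82047525, plus strand) are 8258 bases apart with no gene between them. Ccl3 (chr11:83647844-83649355, minus strand) and Ccl4 (chr11:83662584-83664683, plus strand) are 13228 bases apart. Cxcl9 (chr5:92321347-92328079, minus strand) and Cxcl10 (chr5:92346638-92348889, minus strand) are 18558 bases apart. Cxcl12 is at chr6:117168535-117181367, Cxcl14 at chr13:56288643-56296551, Cxcl1 at chr5:90891241-90893115 and Ccl24 at chr5:135569937-135573049. All 10 are protein-coding genes. Cxcl10 overlaps Art3, and Ccl2 overlaps Gm17268, each on the opposite strand.

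The promoters of Cxcl10 and Cxcl9 are shown because these neighbours were among the members furthest apart between genotypes. They are the 250 bases before each start in RefSeq (GRCm38.p6), read 5′ to 3′ on the minus strand, for Cxcl10 chr5:92348890-92349139 and for Cxcl9 chr5:92328080-92328329. Capitals mark matches, on either strand, to the letters of an interferon-stimulated response element (GAAA, any 2 bases, GAAA), a gamma-activated site (TTC, any 3 bases, GAA) or an NF-kB site (GGGA, any 2 bases, T, any base, CC).
Cxcl10: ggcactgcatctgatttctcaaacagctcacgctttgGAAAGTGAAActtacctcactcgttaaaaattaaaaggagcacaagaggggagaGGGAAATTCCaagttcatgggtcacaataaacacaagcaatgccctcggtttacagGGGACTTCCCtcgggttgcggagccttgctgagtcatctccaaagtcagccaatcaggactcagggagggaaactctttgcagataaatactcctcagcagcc
Cxcl9: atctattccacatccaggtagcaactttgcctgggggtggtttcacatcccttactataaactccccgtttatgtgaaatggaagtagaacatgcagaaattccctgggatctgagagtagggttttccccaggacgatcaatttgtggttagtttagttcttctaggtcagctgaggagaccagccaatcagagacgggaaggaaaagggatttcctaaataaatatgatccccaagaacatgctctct
The Cxcl10 window held 1 interferon-stimulated match, 213 to 204 bases before the start, and 2 NF-kB type matches, at 159 to 150 and 103 to 94 bases. The Cxcl9 window held no match, which says only that these letters are not in it. Of 32851 mouse promoters of this length, 2.98% held the interferon-stimulated letters, 7.02% the gamma-activated letters and 3.33% the NF-kB letters. Promoters were matched for 6 of the 10 members. Besides Cxcl10, Cxcl14 held an interferon-stimulated and a gamma-activated match, and Cxcl1 an NF-kB match.

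Most members had 1 main source. Cxcl12 and Cxcl14 were carried mostly by mesenchyme-like cells, and Ccl2, Ccl3, Ccl7 and Ccl24 mostly by macrophage-like cells. Macrophage-like cells were also the largest source of Ccl4, with 44.5% to 86.3% of its UMIs over the 4 libraries. Cxcl1, Cxcl9 and Cxcl10 were split among classes. Of the UMIs of each gene in kept cells, mesenchyme-like cells held 69.3% to 83.0% for Cxcl12 and 79.6% to 96.2% for Cxcl14 over the 4 libraries. Macrophage-like cells held 79.3% to 95.4% for Ccl2, 91.2% to 96.9% for Ccl7 and 89.5% to 95.2% for Ccl24. These shares move with how many cells of a class were recovered, so the levels below are given per UMI of the class.

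**Figure D1:**
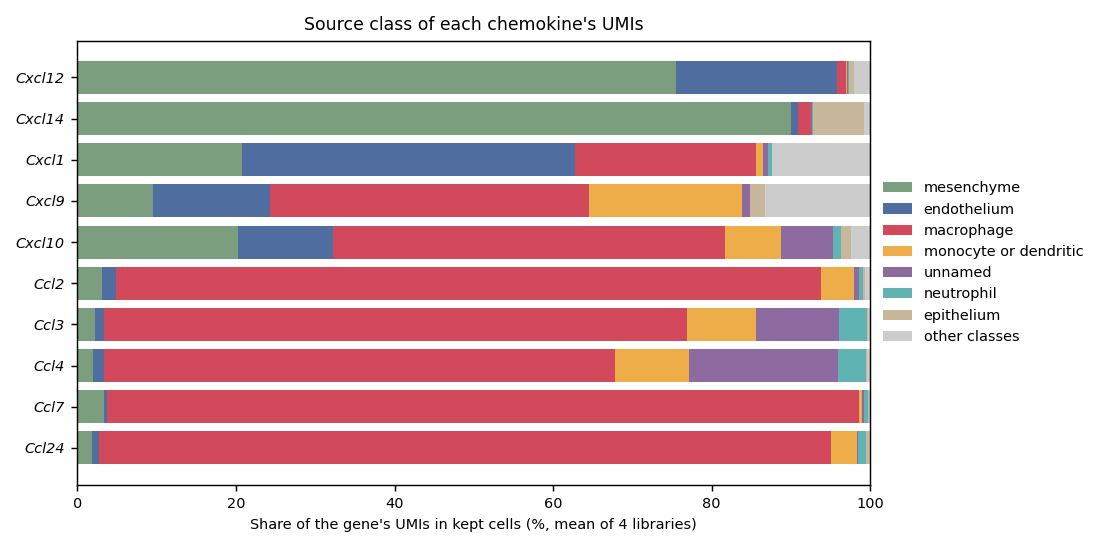
Stacked bars give the percent of each chemokine's UMIs that fell in each cell class, as the mean of 4 libraries (x axis, percent; y axis, gene). Cxcl12 and Cxcl14 are mostly mesenchymal and Ccl2, Ccl7 and Ccl24 mostly macrophage, while Cxcl1, Cxcl9 and Cxcl10 are divided.

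In a fit of summed UMIs over the 3 classes with library as a block (edgeR quasi-likelihood test, Benjamini-Hochberg adjusted over 14175 genes), 8 of 10 members were higher in macrophage-like than in mesenchyme-like cells, where 30.4% of all genes were. The other 2 members, Cxcl12 and Cxcl14, were lower, as were 37.5% of all genes. Between endothelium-like and mesenchyme-like cells 8 members were higher (29.9% of all genes), Cxcl14 was lower (28.7%) and Ccl7 did not pass. Between macrophage-like and endothelium-like cells 8 members were higher (25.1%), Cxcl12 was lower (28%) and Cxcl1 did not pass. The median log2 difference of the members from mesenchyme to macrophage was 7.13, against -0.10 over all genes.

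**Figure D2:**
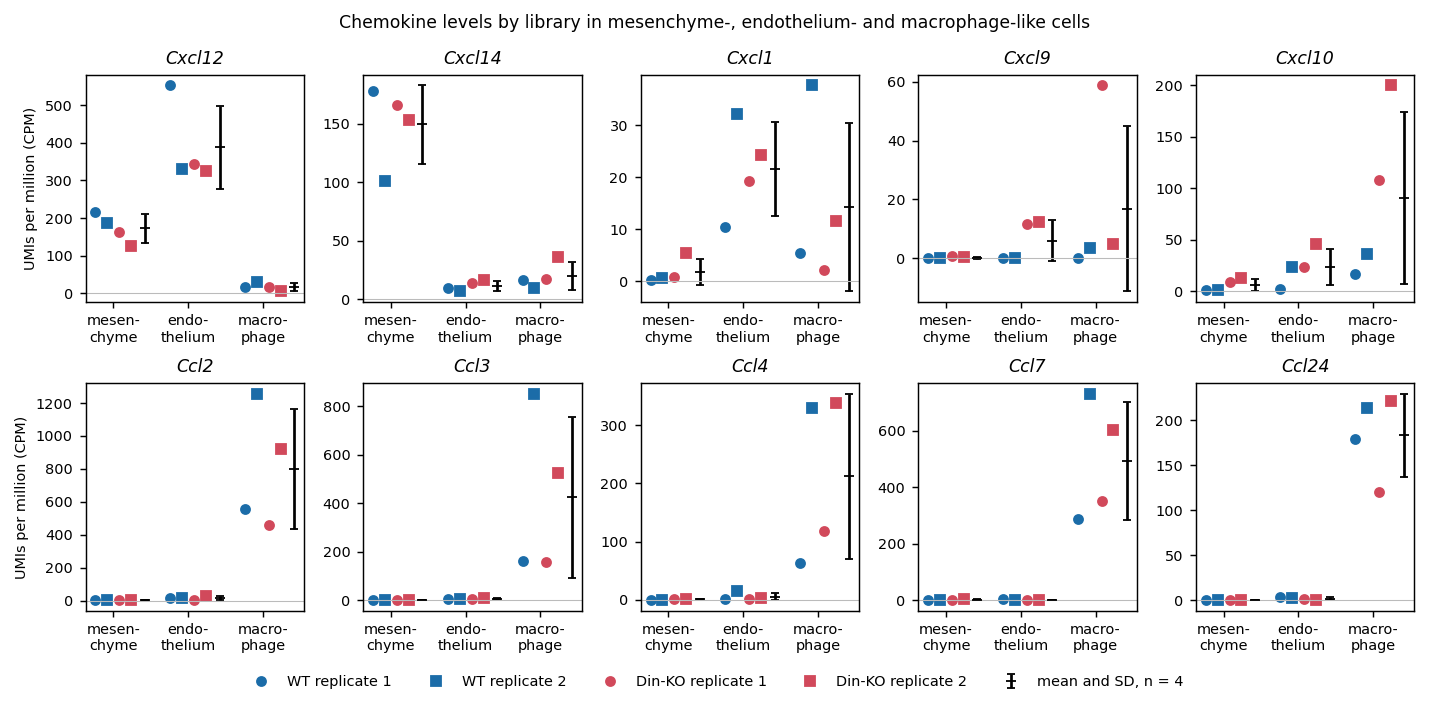
Each panel plots 1 gene, with CPM on a linear y axis and the 3 source classes on the x axis. Points are libraries (circles replicate 1, squares replicate 2) and the bar at the right of each class is the mean and SD of 4 libraries. Cxcl12 is highest in endothelium-like cells, Cxcl14 in mesenchyme-like cells and the 5 CC chemokines in macrophage-like cells.

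Cxcl12, the ligand of Cxcr4 that retains stem and progenitor cells in their niches, was a stromal and vascular transcript. In endothelium-like cells it was at 554 CPM in WT replicate 1, 329 CPM in WT replicate 2, 343 CPM in Din-KO replicate 1 and 326 CPM in Din-KO replicate 2. In mesenchyme-like cells it was at 215, 186, 162 and 126 CPM in the same order. Every endothelial value lay above every mesenchymal one, and the log2 difference was 1.16 (SE 0.19, edgeR adjusted p = 0.000354). The share of cells with a Cxcl12 UMI did not follow this order: with each cell thinned to 2000 UMIs it was 24.5% ± 1.95 of endothelium-like and 27.8% ± 5.74 of mesenchyme-like cells (SD, n = 4), with 1.66% of B-like cells, the class used as a low reference. Few cells held much of the endothelial Cxcl12. The 10 cells with most UMIs held 63.3% and 69.5% of it in WT and 37.9% and 68.1% in Din-KO libraries. Levels without the cell with most UMIs in each library were computed after the data were seen. They were 432 and 285 CPM in WT and 318 and 282 CPM in Din-KO, still above every mesenchymal value. Macrophage-like cells had 4.81 to 29.0 CPM.

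The endothelium-like clusters differed in Cxcl12. In the cluster led by Gja4, Stmn2 and Cldn5, whose leading genes also include Sox17 and Sema3g, known arterial genes, Cxcl12 was at 1919.9 and 976.5 CPM for WT and 1115 and 1249 CPM for Din-KO libraries. The cluster led by Aplnr, Gpihbp1 and Plvap had 138 to 161 CPM. The cluster led by Apoa1, Vwf and Slco1a4 had 2.44 to 34.2 CPM. The order of the 3 clusters was the same in all 4 libraries and their values did not overlap. These are descriptions with no test, because the clusters came from the same cells.

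Among mesenchyme-like clusters Cxcl12 also ranged widely. It was at 375 to 649 CPM in the cluster led by Cldn10, Slc20a2 and Syt6, where Syt6 is a marker of dental pulp. It was at 0.624 to 5.49 CPM in the cluster led by Dmp1, Dkk1 and Ifitm5, which are odontoblast and bone-cell genes. Of the receptors of Cxcl12, Cxcr4 was at 42 to 51.9 CPM in endothelium-like, 1.03 to 4.08 CPM in mesenchyme-like and 99.0 to 377 CPM in B-like cells. Ackr3, a scavenging receptor, was at 20.4 to 33.4 CPM in endothelium-like and 21.9 to 26.6 CPM in mesenchyme-like cells.

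Cxcl14, a chemokine of epithelia and connective tissue, was the member most restricted to mesenchyme-like cells. It was at 178 and 101 CPM for WT and 166 and 153 CPM for Din-KO libraries, against 6.69 to 16.2 CPM in endothelium-like and 9.66 to 36.6 CPM in macrophage-like cells. The log2 difference from mesenchyme was -3.73 (SE 0.21, edgeR adjusted p = 6.61e-08) in endothelium and -2.87 (SE 0.20, edgeR adjusted p = 1.78e-07) in macrophages. It was high in 3 mesenchymal clusters: the one led by Cldn10, Slc20a2 and Syt6 (392 to 479 CPM), the one led by Bmp3, Dkk2 and Fibin (238 to 525 CPM) and the one led by Pdlim3, Dmkn and Ltbp1 (260 to 503 CPM). The first of these also had the highest Cxcl12 of the mesenchymal clusters over all its cells. In the cluster led by Dmp1 it was at 1.36 to 4.43 CPM. Epithelium-like cells had 12.1 and 24.1 CPM in WT and 61.4 and 81.3 CPM for Din-KO libraries, a difference that was not tested.

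**Figure D3:**
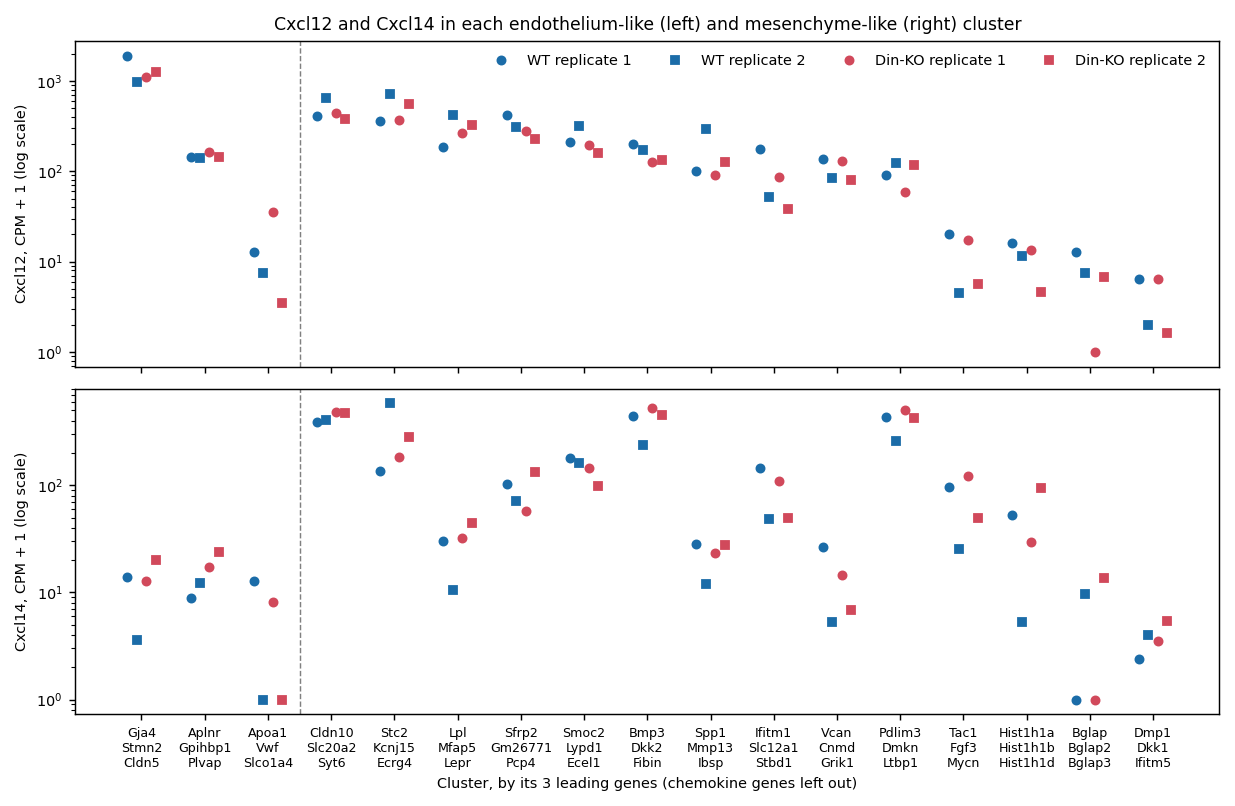
Cxcl12 (top) and Cxcl14 (bottom) in each endothelium-like cluster (left of the dashed line) and mesenchyme-like cluster (right), as CPM + 1 on a log axis, with 1 point per library. Cxcl12 separates the 3 endothelial clusters, and Cxcl12 and Cxcl14 are both near their lowest in the mesenchymal clusters led by Bglap and by Dmp1.

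Ccl2 and Ccl7, which recruit monocytes through Ccr2, were macrophage transcripts. Ccl2 was at 556 and 1257 CPM for WT and 457 and 919.9 CPM for Din-KO macrophage-like cells, against 2.34 to 5.44 CPM in mesenchyme-like and 1.71 to 26.8 CPM in endothelium-like cells. Ccl7 was at 287 and 730.4 CPM for WT and 349.5 and 600.4 CPM for Din-KO macrophages. In both genotypes replicate 2 was above replicate 1, for Ccl2 by 2.26-fold in WT and 2.01-fold in Din-KO. The log2 difference from mesenchyme was 8.03 for Ccl2 (SE 0.45, edgeR adjusted p = 3.11e-08). Ccr2 was highest in monocyte or dendritic-like cells, at 567 to 1151 CPM, against 11.9 to 126 CPM in macrophage-like cells.

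Ccl3 and Ccl4, the macrophage inflammatory proteins, had a wider set of sources. Ccl3 was at 164 and 852 CPM for WT and 159 and 524 CPM for Din-KO macrophage-like cells. Ccl4 was at 63.1 and 329 CPM for WT and 119 and 338 CPM for Din-KO macrophages. Replicate 2 was again higher, 5.19-fold and 3.30-fold for Ccl3. A list of 15 dissociation stress genes was likewise higher in replicate 2 macrophages, with 12980 and 8988 summed CPM against 3398 and 3154 CPM; its part in the chemokine levels was not tested. A cluster with no cell type name, led by Gzma, Mcpt4 and Tpsb2, held Ccl4 at 3.20 and 631 CPM for WT and 246 and 882 CPM for Din-KO libraries. Its Ccl3 was at 9.60 and 929.6 CPM for WT and 61.5 and 572 CPM for Din-KO libraries. Monocyte or dendritic-like cells had Ccl3 at 59.2 to 343 CPM and Ccl4 at 76.8 to 186 CPM. They held a mean of 8.66% of Ccl3 UMIs and 9.35% of Ccl4 UMIs. Neutrophil-like cells had Ccl3 at 0 to 339 CPM, from 18 to 71 cells per library. Macrophage-like cells held 50.5% to 92.9% of Ccl3 UMIs and 44.5% to 86.3% of Ccl4 UMIs.

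Ccl24 (eotaxin-2), which attracts eosinophils through Ccr3, varied least of the 5 CC members relative to its mean in macrophage-like cells (183 ± 46.0 CPM, SD, n = 4). It was at 179 and 213 CPM for WT and 120.1 and 221 CPM for Din-KO macrophage-like cells, and replicate 2 exceeded replicate 1 by 1.19-fold in WT and 1.84-fold in Din-KO. It was higher in the macrophage cluster led by Ms4a7, Cd209f and C1qa (134 to 257 CPM) than in the one led by Lyve1, Fcrls and Cbr2 (74.0 to 144 CPM) in each of the 4 libraries. Ccr3 was at 3.58 to 27.2 CPM in macrophage-like cells.

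The macrophage members did not all share their cells. With each cell thinned to 2000 UMIs, Ccl7 was found in 47.9% and 64.4% of the WT cells that had Ccl2, against 11.4% and 5.56% of those without it. In Din-KO libraries these shares were 54.4% and 67.6%, against 14.9% and 14.6%. For Ccl4 among cells with Ccl3 they were 13.8%, 38.2%, 22.0% and 35.5% in WT replicates 1 and 2 and Din-KO replicates 1 and 2, against 4.43%, 6.90%, 6.97% and 9.26% without Ccl3. In both pairs the second gene was thus more frequent in cells with the first than in cells without it, in every library. This was not particular to genomic neighbours, since it held in all 4 libraries for each of the 6 pairs among Ccl2, Ccl3, Ccl4 and Ccl7, such as Ccl3 in 25.7% to 66.1% of cells with Ccl2 and 10.7% to 29.6% of those without. It held in all 4 libraries for 0 of the 4 pairs with Ccl24. Ccl24 was in 26.4%, 16.9%, 15.0% and 10.8% of cells with Ccl2 and in 25.6%, 29.6%, 13.6% and 22.9% of cells without it, with no common direction.

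Traces of the CC chemokines were close in size to the traces of macrophage markers in mesenchyme-like cells, and less evenly so in endothelium-like cells. In mesenchyme-like cells Ccl2, Ccl3, Ccl4, Ccl7 and Ccl24 stood at 0.10% to 0.939% of the macrophage level of the same library, and the 8 macrophage markers at 0.109% to 0.927%. In endothelium-like cells the 5 genes stood at 0.104% to 4.47% and the markers at 0% to 3.43%, over all libraries. Within WT replicate 2, Ccl4 at 4.47% lay above every marker there (at most 1.65%). Within Din-KO replicate 2, Ccl2 at 2.91% did so as well (markers at most 1.75%). Cxcl10 in mesenchyme-like cells was at 2.54% to 8.33% and Cxcl1 at 1.62% to 47.1%, above every marker in every library. The part of macrophage RNA in these traces was not tested. With cells assigned by a marker gate in place of clusters, the log2 difference of endothelium from mesenchyme for Ccl3 turned from 2.01 to -0.068, for Ccl4 from 2.44 to -0.84 and for Ccl24 from 2.06 to -0.72, and that of Ccl2 went from 2.03 to 1.02 and no longer passed.

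**Figure D4:**
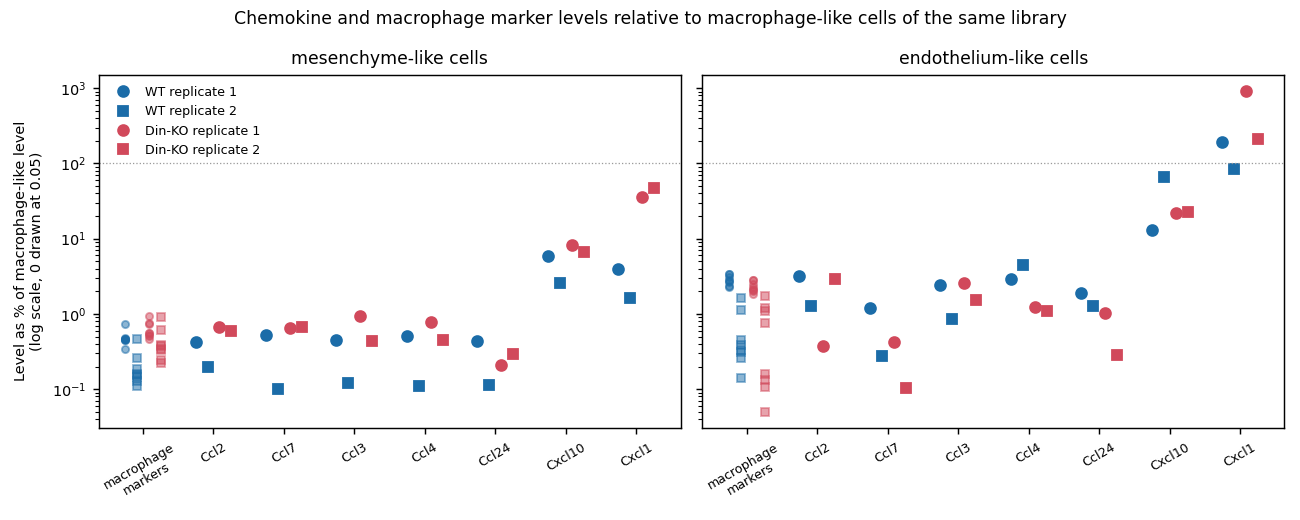
Level of 7 chemokines and of 8 macrophage markers in mesenchyme-like (left) and endothelium-like (right) cells, as percent of the macrophage-like level of the same library on a log axis (values of 0 drawn at 0.05). The 5 CC chemokines mostly lie within or near the range of the markers, and Cxcl10 and Cxcl1 lie above it. In endothelium-like cells Ccl4 of WT replicate 2 and Ccl2 of Din-KO replicate 2 lie above the markers of their library.

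Cxcl1, which draws neutrophils through Cxcr2, was split among sources, with a mean of 42.1% of its UMIs in endothelium-like, 22.8% in macrophage-like and 20.7% in mesenchyme-like cells. Endothelium-like cells had 10.5 and 32.1 CPM in WT and 19.3 and 24.3 CPM for Din-KO libraries. Macrophage-like cells had 5.47 and 37.7 CPM in WT and 2.07 and 11.5 CPM for Din-KO libraries, which overlapped the endothelial values (log2 difference -0.89, SE 0.66, edgeR adjusted p = 0.287). Mesenchyme-like cells had 0.213 and 0.610 CPM in WT and 0.745 and 5.44 CPM for Din-KO libraries. Glia-like cells, 14 to 45 per library, had 68.6 and 83.9 CPM (WT) and 16.7 and 12.1 CPM (Din-KO), from 7, 18, 3 and 8 UMIs. Cxcr2 was at 85.3 to 373 CPM in neutrophil-like cells and at most 4.02 CPM in the 3 source classes.

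Cxcl9 and Cxcl10, the interferon-induced ligands of Cxcr3 that attract T cells, differed most between genotypes. Cxcl10 was at 0.994 and 0.915 CPM for WT and 9.02 and 13.4 CPM for Din-KO mesenchyme-like cells (28, 15, 254 and 167 UMIs). The Din-KO level was 9.07 times WT in pair 1 (exact 95% interval from counting error only, 6.13 to 13.9) and 14.6 times in pair 2 (8.61 to 26.7). Both Din-KO libraries were above both WT libraries, with a log2 difference of 3.49 (SE 0.37), but this did not pass (edgeR adjusted p = 1.00, unadjusted p = 0.000397). The UMIs were held by few cells: 0.566% and 1.30% of WT and 1.82% and 6.0% of Din-KO mesenchyme-like cells had a Cxcl10 UMI, against 0% to 1.03% of B-like cells at a lower depth (2579 to 3536 against 7587 to 15053 median UMIs). In cells with Xist UMIs the ratios were 12.8 and 16.4. Art3, on the opposite strand, also had more UMIs in Din-KO mesenchyme-like cells (8 and 5 in WT, 41 and 19 in Din-KO), and since the strand setting of the counting was not given in the sources used here, reads shared by the overlapping genes cannot be told apart.

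In macrophage-like cells Cxcl10 was at 16.8 and 36.0 CPM for WT and 108 and 200.1 CPM for Din-KO libraries, 6.46 and 5.56 times WT. The log2 difference was 2.67 (SE 0.44, edgeR adjusted p = 0.216). Single cells held much of this: 1 cell had 389 of the 888 UMIs in Din-KO replicate 1 and 1 cell had 164 of the 208 in Din-KO replicate 2. Without the cell with most UMIs in each library, a value computed after the data were seen, the levels were 13.2 and 24.6 CPM in WT and 60.9 and 42.3 CPM for Din-KO. Both Din-KO libraries remained above both WT libraries. In cells with Xist UMIs the ratios were 3.50 and 1.66. In endothelium-like cells Cxcl10 was at 2.16 and 24.1 CPM for WT and 23.6 and 45.5 CPM for Din-KO libraries. The groups thus overlapped (log2 difference 1.57, SE 0.87, edgeR adjusted p = 1.00). In endothelium-like cells with Xist UMIs they did not, at 2.21 and 24.6 CPM for WT and 42.6 and 46.0 CPM for Din-KO. With the marker gate they overlapped, at 2.02 and 28.1 CPM for WT and 25.6 and 45.4 CPM for Din-KO.

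Cxcl9 was not detected in WT endothelium-like cells, with 0 of 240 and 0 of 103 cells, which allows up to 1.25% and 2.91% of cells with a UMI and does not limit the share of cells that express the gene. In Din-KO libraries it was in 20 of 298 cells (6.71%, 95% Wilson interval 4.39% to 10.1%) and in 13 of 114 cells (11.4%, 6.79% to 18.5%). B-like cells of all 4 libraries had no Cxcl9 UMI in thinned cells. The Din-KO level, 11.7 and 12.5 CPM, was at least 12.6-fold higher in pair 1 and at least 6.2-fold higher in pair 2, with 3 UMIs per library taken as the limit for WT. It was present in Din-KO cells of all 3 endothelial clusters. The test did not pass (edgeR adjusted p = 0.140, unadjusted p = 0.000326). In cells with Xist UMIs there were 38 UMIs in Din-KO replicate 1 but only 2 in Din-KO replicate 2, against 0 in WT. The 7 T or NK cell markers summed to 0 CPM in WT and to 11.7 and 8.72 CPM for Din-KO endothelium-like cells; their part was not tested.

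In macrophage-like cells Cxcl9 was at 0.188 and 3.51 CPM for WT and 58.9 and 4.81 CPM for Din-KO libraries. The high value is 1 library, and in it 260 of the 483 UMIs came from 1 cell. Its macrophage cluster led by Lyve1, Fcrls and Cbr2 had 164 CPM and the one led by Ms4a7, Cd209f and C1qa had 26.9 CPM. Without Din-KO replicate 1 the log2 difference of macrophages from endothelium went from 1.77 to 0.13 and no longer passed. Cxcr3 was at 7.90 to 13.2 CPM in macrophage-like cells and at most 0.488 CPM in endothelium-like cells.

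**Figure D5:**
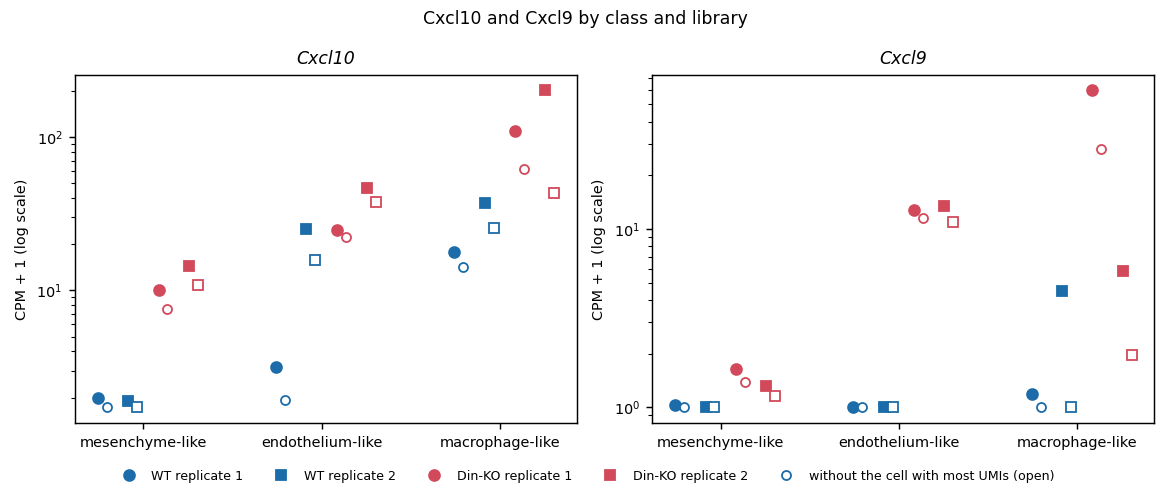
Cxcl10 (left) and Cxcl9 (right) as CPM + 1 on a log axis, by source class. Filled points are libraries and open points the same library without its cell with most UMIs of the gene. Cxcl9 is at 0 in both WT libraries of endothelium-like cells, and the Cxcl10 of Din-KO replicate 2 macrophages drops from 200.1 to 42.3 CPM without 1 cell.

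Across the members, no genotype difference passed in any class by the edgeR quasi-likelihood test, fitted without a block. At an unadjusted p under 0.05 there were Cxcl10 and Ccl4 of 9 members tested in mesenchyme, Cxcl9 of 7 in endothelium, and Cxcl9 and Cxcl10 of 10 in macrophages, where 1.01%, 2.66% and 2.82% of all genes were. Of all genes, 0%, 0.0447% and 0.0549% passed after adjustment in the 3 classes. DESeq2 called Cxcl10 in mesenchyme and macrophages and Cxcl9 in endothelium, and of all genes 0.111%, 0.492% and 0.476% in mesenchyme, endothelium and macrophages. Both Din-KO libraries were above both WT libraries for 6 of 9 members in mesenchyme-like cells (Cxcl1, Cxcl10, Ccl2, Ccl3, Ccl4 and Ccl7), against 11.5% of all genes. In cells with Xist UMIs only Cxcl10 and Ccl2 of these 6 kept that order. Ccl4 was at 0.225 and 0 CPM in Din-KO against 0.322 and 0.371 CPM in WT there. These values rest on 2 and 0 UMIs against 9 and 6. The Din-KO counts are under the limit of 3 UMIs, so no direction can be read from them. With classes by the marker gate only Cxcl10 and Ccl7 of the 6 kept the order. The count was 2 of 7 in endothelium-like cells (Cxcl9 and Cxcl14), against 11.4%, and 3 of 10 in macrophage-like cells (Cxcl9, Cxcl10 and Cxcl14), against 9.22%. Cxcl14 did not keep this order in Xist cells of either class, while Cxcl10 did in macrophages. Cxcl9 was above WT in the Xist cells of both classes, but on few UMIs in replicate 2. Endothelium-like cells there had 2 UMIs in Din-KO against 0 in WT. That is under the limit of 3 UMIs, so no direction can be read from that pair. Macrophage-like cells there had 5 UMIs in Din-KO against 4 in WT. Levels without the cell with most UMIs in each library were computed after the data were seen. Endothelial Cxcl14 then overlapped, at 8.34 and 3.35 CPM in WT and 12.2 and 5.60 CPM in Din-KO. Mesenchymal Ccl2 also overlapped, at 1.88 and 2.26 CPM in WT and 2.13 and 4.40 CPM in Din-KO. The other members in these counts kept their order, except that the order of macrophage Cxcl9 could not be read. It then had 0 UMIs in both WT libraries and 1 in Din-KO replicate 2, under the limit of 3 UMIs. Mesenchymal Ccl4 kept its order on 4 and 4 UMIs in WT and 15 and 10 in Din-KO. The 4 CC members in the mesenchymal count are among those whose traces lay near those of the macrophage markers. Ccl24, whose trace also lay there, overlapped between genotypes, at 0.781 and 0.244 CPM in WT and 0.248 and 0.640 CPM in Din-KO. The macrophage markers summed higher in Din-KO replicate 1 (121 CPM) than in either WT library (80.7 and 29.6 CPM), while Din-KO replicate 2 (74.7 CPM) lay between them. The 8 monocyte or dendritic markers summed to 224 and 192 CPM in WT mesenchyme-like cells and to 306 and 449 CPM in Din-KO ones. The 15 dissociation stress genes summed to 702 and 1750 CPM in WT and to 1128 and 2980 CPM in Din-KO, with a positive log2 difference for 15 of 15 (median 0.74) and 0 that passed by edgeR or at an unadjusted p under 0.05. The part of these lists in the mesenchymal values was not tested.

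Cxcl12 was the only member below WT in both Din-KO libraries of mesenchyme-like cells, where 6.3% of all genes were. The Din-KO level was 0.753 times WT in pair 1 (0.725 to 0.783) and 0.675 times in pair 2 (0.635 to 0.718), and the log2 difference of -0.52 (SE 0.23) did not pass (edgeR adjusted p = 1.00). Of 9 mesenchymal clusters with at least 20 cells in every library, it was lower in both pairs in 6 and higher in both in 0. In cells with Xist UMIs the ratios were 0.883 and 0.588, and the groups overlapped. The mix of clusters also differed between genotypes. The cluster led by Cldn10, Slc20a2 and Syt6, with the highest mesenchymal Cxcl12, held 720 of 2650 and 77 of 845 WT mesenchyme-like cells. In Din-KO it held 430 of 3029 and 27 of 633. The part of this mix in the class levels was not tested. In macrophage-like cells Cxcl12 was also lower in both Din-KO libraries (17.7% of all genes), at 16.6 and 4.81 CPM against 17.9 and 29.0 CPM. There 1 cell held 23 of the 33 UMIs of WT replicate 2, and without the cell with most UMIs in each library the groups overlapped, at 14.3 and 3.85 CPM against 16.4 and 8.78 CPM. They also overlapped with the marker gate. In endothelium-like cells 0 of the 7 members tested were below WT in both Din-KO libraries (13.2% of all genes). Ccl7 and Ccl24, which did not pass the filter on low counts there, were below, with 3.40 and 2.01 CPM (WT) against 1.46 and 0.623 CPM (Din-KO) for Ccl7. These Ccl7 values rest on 11 and 3 UMIs in WT and 6 and 1 in Din-KO. Without the cell with most UMIs in each library Ccl7 overlapped, at 0.927 and 0.669 CPM against 1.22 and 0 CPM. Ccl24 then did not, at 2.16 and 1.34 CPM against 0.488 and 0 CPM. Both genes overlapped with the marker gate and stayed below in cells with Xist UMIs. Cxcl14 in mesenchyme-like cells had pair ratios of 0.933 and 1.51 and did not move one way.

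Cxcl1 had pair ratios on opposite sides of 1 in mesenchyme and macrophages. The pair ratios were 3.50 and 8.92 in mesenchyme-like cells and 0.379 and 0.306 in macrophage-like cells. In cells with Xist UMIs they were 1.05 and 3.60 in mesenchyme and 0.250 and 0.0522 in macrophages. Of these, the ratio of 1.05 rests on 2 Din-KO UMIs and that of 0.0522 on 1. Both counts are under the limit of 3 UMIs, so the size of these 2 ratios cannot be read. With the marker gate the mesenchymal ratios were 3.54 and 3.09. The difference between the genotype effects was -4.18 on the log2 scale (SE 0.93), with an unadjusted p of 0.00135 that did not pass (edgeR adjusted p = 1.00). No gene of 14175 passed this test (0%), and 364 had an unadjusted p under 0.05. The mesenchymal values rest on 6, 10, 21 and 68 UMIs.

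Other chemokines and receptors were measured from fixed lists. Of 23 other ligands, 13 were tested between classes, and 8 were higher and 5 lower in macrophage-like than in mesenchyme-like cells. The most abundant were Pf4, a platelet and macrophage chemokine, at 2116 to 4506 CPM in macrophages, followed by Ccl12 (603 to 1097 CPM), Cxcl2 (224 to 1257 CPM), Ccl8 (40.3 to 393 CPM), Cxcl16 (135 to 277 CPM) and Ccl6 (65.0 to 208 CPM). Of 23 receptors 14 were tested, and 8 were higher and 2 lower in macrophages. Cx3cr1, the fractalkine receptor, was at 1203 to 1783 CPM there, Ccr1 at 218 to 323 CPM and Ccrl2 at 6.03 to 80.8 CPM. Between genotypes 0 of the ligands and 0 of the receptors tested passed in any class by edgeR. At an unadjusted p under 0.05 there were 3 ligands in mesenchyme, 0 in endothelium and 4 in macrophages, of which DESeq2 called 0, 0 and 2, and 0 receptors in each class by either tool. The shares of all genes are those given above for the same thresholds.

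Interferon genes stood on the same side as Cxcl9 and Cxcl10. In a list of 20, all 20 had a positive log2 difference in each class, with medians of 1.74 in mesenchyme, 2.09 in endothelium and 1.69 in macrophages against -0.02, -0.01 and -0.01 over all genes, and 0, 1 and 0 passed by edgeR, with 10, 20 and 17 at an unadjusted p under 0.05 and 2, 16 and 8 called by DESeq2 in mesenchyme, endothelium and macrophages. Of all genes, 1.01%, 2.66% and 2.82% had such an unadjusted p, and DESeq2 called 0.111%, 0.492% and 0.476%. Their sum was 717 to 732 CPM in WT and 2568 to 3317 CPM for Din-KO endothelium-like cells. This list was known to be higher in Din-KO cells when it was chosen, so it is no independent support. A list of 12 NF-kB targets and inflammatory cytokines had medians of 0.35, 0.42 and 0.19 over the 10, 9 and 10 genes tested. The log2 difference was positive for 10, 8 and 7 of them. Of the genes tested, 0 passed by edgeR or DESeq2, and 0 had an unadjusted p under 0.05 by edgeR. In mesenchyme it was also positive for 11 of 11 receptors and 15 of 15 dissociation stress genes. A shared positive direction there was thus not particular to the interferon genes.

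The genes whose level was most like each member over 36 class and library sums are a description, since the sums share libraries and classes. Ccl3 and Ccl4 were nearest to each other (Pearson r = 0.968), with Cxcl2 next for Ccl3 (0.928). Ccl2 was nearest to F13a1 (0.939) and Ms4a6d (0.915), Ccl7 to Hpgds (0.919) and Ccl24 to P2ry6 (0.917) and Clec4n (0.917). Cxcl12 was nearest to Fbln5 (0.856) and Limch1 (0.848), and Cxcl14 to Slc4a4 (0.851) and Fabp3 (0.821). Cxcl10 was nearest to P2rx7 (0.811), Cxcl9 to Cfb (0.766) and Cxcl1 to Paqr4 (0.824).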

How the data were processed

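Raw UMI counts per gene and barcode were deposited by the authors for 4 libraries, made with Cell Ranger against mm10 (GRCm38) and not normalized. The study's own limits were used for cells: a minimum of 1000 genes, and maxima of 10% for mitochondrial and 3% for hemoglobin UMIs. Total UMIs over all barcodes were 50423655, 32198098, 54348039 and 33076212 in WT replicates 1 and 2 and Din-KO replicates 1 and 2. Seurat 5.3.0 clustered the cells on 2000 variable genes, 30 principal components and a resolution of 1, with chemokine ligand and receptor genes left out. Clusters were named from marker lists. Free RNA was not removed. Scrublet marked 107 cells (0.946%) as doublets, which were kept; an alternative removed the highest-scoring 5% of each library.

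UMIs were summed per library and class and tested with edgeR 4.0.16 (TMM scaling, filterByExpr, quasi-likelihood F test, Benjamini-Hochberg threshold 0.05), without a covariate between genotypes and with library as a block between classes. DESeq2 1.42.0 was an alternative. The methods were tested on simulated data. With 2 libraries in each group, the smallest two-sided p of an exact permutation test is 0.333. Intervals and limits (3 UMIs) cover counting error only. Gene positions are from GENCODE vM21, where 99.6% of gene identifiers matched. The text names all 10 members, the 6 other ligands and 6 receptors with the highest mean level in a source class, the members' receptors, and the 2 genes most like a member. One receptor that this rule names is not reported here. The members, lists and motifs were chosen with earlier results of these data known.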

Additional observations from a re-analysis of the deposited data

Results flagged for a closer look

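The 9192 barcodes that failed the filters were not part of any comparison, and 5 members were higher there in both Din-KO libraries than in both WT libraries. Ccl2 was at 28.1 and 22.1 CPM in Din-KO against 8.54 and 16.4 CPM in WT. Ccl7 was at 25.0 and 21.7 CPM against 6.44 and 16.7 CPM. Ccl4 was at 31.3 and 18.3 CPM against 1.12 and 13.1 CPM. Cxcl10 was at 10.2 and 8.45 CPM against 1.40 and 1.04 CPM. Cxcl14 was at 177 and 82.9 CPM against 40.5 and 43.5 CPM. None of these differences was tested. The share of all genes with this order was not computed for these barcodes, so the count cannot be read as particular to chemokines.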

How the results depend on the processing

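All 10 members passed between macrophage-like and mesenchyme-like cells in each alternative. Between endothelium and mesenchyme the marker gate left 5 of 9 calls, and without the highest Scrublet scores Ccl3 (0.21) and Ccl4 (1.35) no longer passed. Without the library block Cxcl10 no longer passed there (1.93), nor did Cxcl9 (1.92), Cxcl10 (2.18) and Cxcl14 (0.93) between macrophages and endothelium. Cxcl9 was lost in the latter also by DESeq2 (1.71). Genotype calls depended on the method: the count of members called was 0 in each class, and DESeq2 gave 1 in each, no filter on low counts gave 1 in mesenchyme and 2 in endothelium and macrophages, and the replicate block gave 3 in mesenchyme (Cxcl1, Cxcl10 and Cxcl12) and 2 in endothelium and macrophages (Cxcl9 and Cxcl10). In mesenchyme, endothelium and macrophages the block called 1.71%, 1.45% and 2.25% of all genes, and the fit with no filter 0.0305%, 1.05% and 0.751%. A genotype fit without 1 library leaves a lone library in its group, which was taken to vary like the other group. Only effect sizes are therefore given for these fits. In endothelium the log2 difference was 7.70 to 8.16 for Cxcl9 and 0.53 to 3.91 for Cxcl10. In macrophages it was 2.18 to 3.19 for Cxcl10, 3.54 to 7.50 for Cxcl9 and -3.05 to -0.091 for Cxcl1. In mesenchyme it was 3.21 to 3.77 for Cxcl10. The labels do not say what a replicate number marks, and same-numbered libraries deviated together (r = 0.787, 0.432 and 0.530 across genes in mesenchyme, endothelium and macrophages, from 2 pairs).

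Directions turned, in log2 differences, as follows. In endothelium between genotypes, with Xist cells Cxcl14 was at -0.032, Cxcl1 at -0.087 and Ccl3 at -0.057; with the marker gate Cxcl1 was at -0.18 and Ccl2 at 0.82; and without the highest Scrublet scores Ccl2 was at 0.67. In macrophages, Xist cells gave Ccl4 -0.090 and Ccl24 0.32, the lower-stress cells gave Ccl2 0.17, Ccl4 -0.40, Ccl7 0.50 and Ccl24 0.16, the Scrublet alternative gave Cxcl12 0.24 and the block Ccl7 0.080. In mesenchyme the gate gave Ccl4 -0.36. Between endothelium and mesenchyme, the gate gave Ccl3 -0.068, Ccl4 -0.84, Ccl7 -0.83 and Ccl24 -0.72, the Scrublet alternative Ccl7 -0.068 and Ccl24 -1.61, DESeq2 Ccl7 -0.028, no filter -0.051 and no library block -0.080.

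Leaving out 1 library at a time also turned directions. In endothelium the ranges were -0.74 to 0.085 for Cxcl12, -0.52 to 1.02 for Cxcl1, -3.23 to 0.64 for Ccl2 and -0.35 to 0.54 for Ccl3. In macrophages they were -0.82 to 0.31 for Ccl2, -1.496 to 1.03 for Ccl3, -0.53 to 1.83 for Ccl4, -0.52 to 0.73 for Ccl7 and -0.56 to 0.18 for Ccl24. In mesenchyme they were -0.20 to 0.64 for Cxcl14 and -1.09 to 0.77 for Ccl24. For Ccl7 between endothelium and mesenchyme the range was -0.66 to 0.52. The cause was not tested in any case. Of the single-gene values under the alternatives, 560 kept their direction and their side of the threshold or moved by less than the spread between libraries. A value that passed in neither setting and kept its direction counts among these. Another 44 turned direction, 26 came to pass the threshold, 9 no longer passed it and 12 moved by more than that spread. A library with 87 to 113 cells of a class limits what can be seen there.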
